A study of Mus musculus with 10 samples.

Results

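Genes of the striatal medium spiny neuron were followed in RNA from dissected mouse cortex. The medium spiny neuron is the GABA-releasing projection cell that makes up most of the striatum, the region that lies beneath the cortex. Dopamine and adenosine reach it through receptors that act on a G protein (Gnal), on cAMP and on the phosphatase inhibitor DARPP-32 (Ppp1r1b), and the cells of its indirect pathway make enkephalin from the precursor encoded by Penk. The 8 genes described were Penk, Ppp1r1b, Rarb, Syndig1l, Gnal, Arpp21, Foxo1 and Fam184b, out of 7385 genes to which counts could be assigned and 2019 that had enough counts to be tested. Of these, 7 were chosen as genes known from striatum, after earlier results of these libraries had shown striatal genes to vary, and Fam184b was chosen because its counts followed theirs. Levels, genotype differences and shared variation of the members are therefore descriptions of the values that led to their choice.

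The libraries came from a small piece of cortex of 5 wild-type mice, labelled wt/wt, and of 5 mice homozygous for the dTPR allele, labelled dTPR/dTPR, in which the co-chaperone STI1 (gene Stip1) lacks its TPR1 domain. All were on a C57BL/6 background, and no treatment is given. Wild-type animals 1 to 5 were 663, 604, 663, 442 and 576 days old and dTPR homozygous animals 1 to 5 were 630, 606, 604, 582 and 541 days old. The tissue is labelled as part of 1 hemisphere, so each library holds 1 dissected piece of 1 animal, and p-values measure the spread between such pieces.

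Library totals ran from 667751 to 927242 counts, and 3 counts, the limit that a count of 0 allows, stood for 3.66 to 4.97 CPM (counts scaled to a common library size with TMM factors). Judged by the positions of the gene IDs that hold counts, reads were counted on the strand opposite to the genes, with 94.2% of counts at IDs lying opposite exons of some other gene. A gene was therefore read from the IDs that face it. Stip1 has no such ID and held 0 to 8 counts at its own, so the deletion was not checked here. Of 80 other genes listed for medium spiny neurons, 11 had a facing ID and 6 could be tested; the defining markers Drd1, Drd2, Adora2a, Tac1, Pdyn, Pde10a, Rgs9, Adcy5, Bcl11b and Chrm4 had none, so that the striatal label rests on the members themselves.

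The places where the members were counted differ, and they decide which part of each transcript a value stands for (coordinates on build GRCm38). Ppp1r1b (chromosome 11, 98348404 to 98357796, plus strand) was counted at 1700003D09Rik, which faces 460 of its exon bases, 164 of them coding, in coding exons 3, 4 and 5 of 7. Rarb, a nuclear receptor for retinoic acid (chromosome 14, 16430839 to 16819156, minus strand), was counted at Top2b, whose last exons face the coding part of exons 6, 7 and 8 of Rarb and its 3′ UTR, 1793 bases in all. Syndig1l, a membrane protein of the SynDIG family (chromosome 12, 84677277 to 84698831, minus strand), was counted at Gm48573, a gene model of 177 bases that lies wholly opposite its 3′ UTR in exon 4 of 4. Gnal, the G protein alpha subunit that couples dopamine and adenosine receptors to adenylyl cyclase (chromosome 18, 67088216 to 67226792, plus strand), was counted at Mppe1, which faces 852 bases of its 3′ UTR in exon 12.

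Penk, Arpp21 and Foxo1 were counted at their 5′ ends. A830012C17Rik faces 233 exon bases of Penk (chromosome 4, 4133531 to 4138819, minus strand), none of them coding, and these make up 14.0% of its own exon bases. 2900079G21Rik faces 580 bases at the start of Arpp21 (chromosome 9, 112065091 to 112235938, minus strand), which encodes a cAMP-regulated phosphoprotein, and these are 8.63% of its exon bases. Gm20402 faces 674 bases in the first exon of Foxo1 (chromosome 3, 52268336 to 52353221, plus strand), a forkhead transcription factor restrained by insulin signalling. The facing part was also a minority of the exon bases of Top2b for Rarb (12.3%), Mppe1 for Gnal (23.6%) and 1700003D09Rik for Ppp1r1b (33.1%). It was 98.1% for Gm20402 and 100% for Gm48573. All counts of an ID were given to the member, reads beyond the shared bases among them. A transcript that starts upstream of Penk or Arpp21 on the same strand could not be told apart from them.

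Fam184b (chromosome 5, 45529705 to 45639614, minus strand), a gene named for sequence similarity to Fam184a, was counted at both ends. Gm42521 faces 1354 bases, of which 305 are coding, in exons 14 and 15 of 16. All 1354 lie in 1 exon of a transcript annotated as a retained intron. The 1354 bases are 66.4% of the exon bases of Gm42521, which held 1698 counts over the 10 libraries. 9630001P10Rik faces 444 bases of exon 1, which are 9.32% of its own exon bases, and held 47 counts. Rarb also has an ID opposite the first exon of 1 of its transcripts, Gm48162, 243329 bases inside the gene from its outermost start. Gm48162 faces 227 bases of the 5′ UTR of that transcript and held 0 counts in all 10 libraries.

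To show what was read and what lies at the starts, 1 coding exon and 2 promoter windows are printed, 5′ to 3′ on the strand of the gene. In coding exon 5 of Ppp1r1b (GENCODE M21, GRCm38, chr11:98355327-98355509) the capitals mark the 65 bases that face the counted ID. The promoter windows run from 250 bases before to 50 bases after a start (RefSeq, GRCm38.p6, minus strand); they are those of Rarb (chr14:16575427-16575726), of which the bases from 16575601 on lie opposite Gm48162, and of Fam184b (chr5:45639452-45639751), which overlaps the stretch opposite 9630001P10Rik. The capitals in Rarb mark a match to the retinoic acid response element, and none of the searched motifs matched in the window of Fam184b.
Ppp1r1b exon 5: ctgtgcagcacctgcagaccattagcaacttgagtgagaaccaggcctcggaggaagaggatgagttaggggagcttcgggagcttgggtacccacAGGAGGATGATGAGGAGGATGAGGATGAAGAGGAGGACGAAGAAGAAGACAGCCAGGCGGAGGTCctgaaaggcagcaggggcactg
Rarb promoter: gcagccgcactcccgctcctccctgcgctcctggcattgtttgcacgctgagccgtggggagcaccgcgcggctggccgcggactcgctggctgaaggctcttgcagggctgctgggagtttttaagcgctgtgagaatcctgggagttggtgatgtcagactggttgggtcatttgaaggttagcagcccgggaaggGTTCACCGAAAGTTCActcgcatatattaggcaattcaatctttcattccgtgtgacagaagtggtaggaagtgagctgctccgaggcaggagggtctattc
Fam184b promoter: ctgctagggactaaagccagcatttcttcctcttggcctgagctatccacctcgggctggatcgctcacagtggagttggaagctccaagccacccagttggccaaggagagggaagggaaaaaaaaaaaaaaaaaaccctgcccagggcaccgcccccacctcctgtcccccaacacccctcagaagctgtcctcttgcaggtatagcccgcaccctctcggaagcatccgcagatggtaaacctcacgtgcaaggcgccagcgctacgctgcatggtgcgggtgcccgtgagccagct

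The table of promoter windows held 4 of the 8 members, with 1 window for Rarb, 1 for Foxo1, 1 for Fam184b and 9 for Arpp21. Windows were searched on both strands for GTTCA repeated after 6 bases (the retinoic acid response element), for the cAMP response element TGACGTCA, for the FOXO core TGTTTAC and for the MEF2 core. Among the members' windows the retinoid motif was found once, in Rarb, with its first base 52 bases before the start, in a gene known as a target of its own receptor. It occurs in 0.0761% of the 32851 windows, against 1.79% for the cAMP response element, 3.65% for the FOXO core and 0.164% for the MEF2 core. A match describes the letters and not binding.

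Members of dopamine and opioid signalling come first. Counts of Penk were 42, 298, 393, 152 and 45 from wild-type animal 1 to 5, against 55, 77, 39, 10 and 64 from dTPR homozygous animal 1 to 5. Wild-type animals 2, 3 and 4 were the 3 highest libraries, wild-type animals 1 and 5 lay among the dTPR homozygous ones, and dTPR homozygous animal 4 was the lowest. The means were 261.5 ± 209.1 CPM in wild type and 75.6 ± 41.6 CPM in dTPR homozygous cortex (SD, n = 5 each), a log2 fold change of -1.80 ± 0.72 (SE). The groups overlapped, and within each of them the highest library had 9.72 and 9.73 times the level of the lowest.

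Ppp1r1b followed the same order at the top. Its counts were 269, 1136, 1675, 655 and 307 from wild-type animal 1 to 5, against 231, 304, 302, 70 and 478 from dTPR homozygous animal 1 to 5. Wild-type animals 3, 2 and 4 again led, dTPR homozygous animal 5 came next, and dTPR homozygous animal 4 was lowest at 87.9 CPM. With 1137 ± 798 and 429.5 ± 243.9 CPM the log2 fold change was -1.41 ± 0.63. Counting error is a small part of this spread: the coefficient of variation in wild type was 70.2%, against 3.52% from counting alone, and for Penk 80.0% against 7.33%.

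Gnal moved over a narrower range. Its counts were 232, 577, 478, 337 and 332 in wild-type animals 1 to 5 and 288, 338, 199, 242 and 328 in dTPR homozygous animals 1 to 5. Wild-type animals 2, 3 and 4 were again the 3 highest and dTPR homozygous animal 4 the lowest, but the highest library had 2.15 times the lowest in wild type and 1.77 times in dTPR homozygous cortex. The means were 550.3 ± 171.9 and 418.7 ± 105.9 CPM, a log2 fold change of -0.40 ± 0.23.

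**Figure D1:**
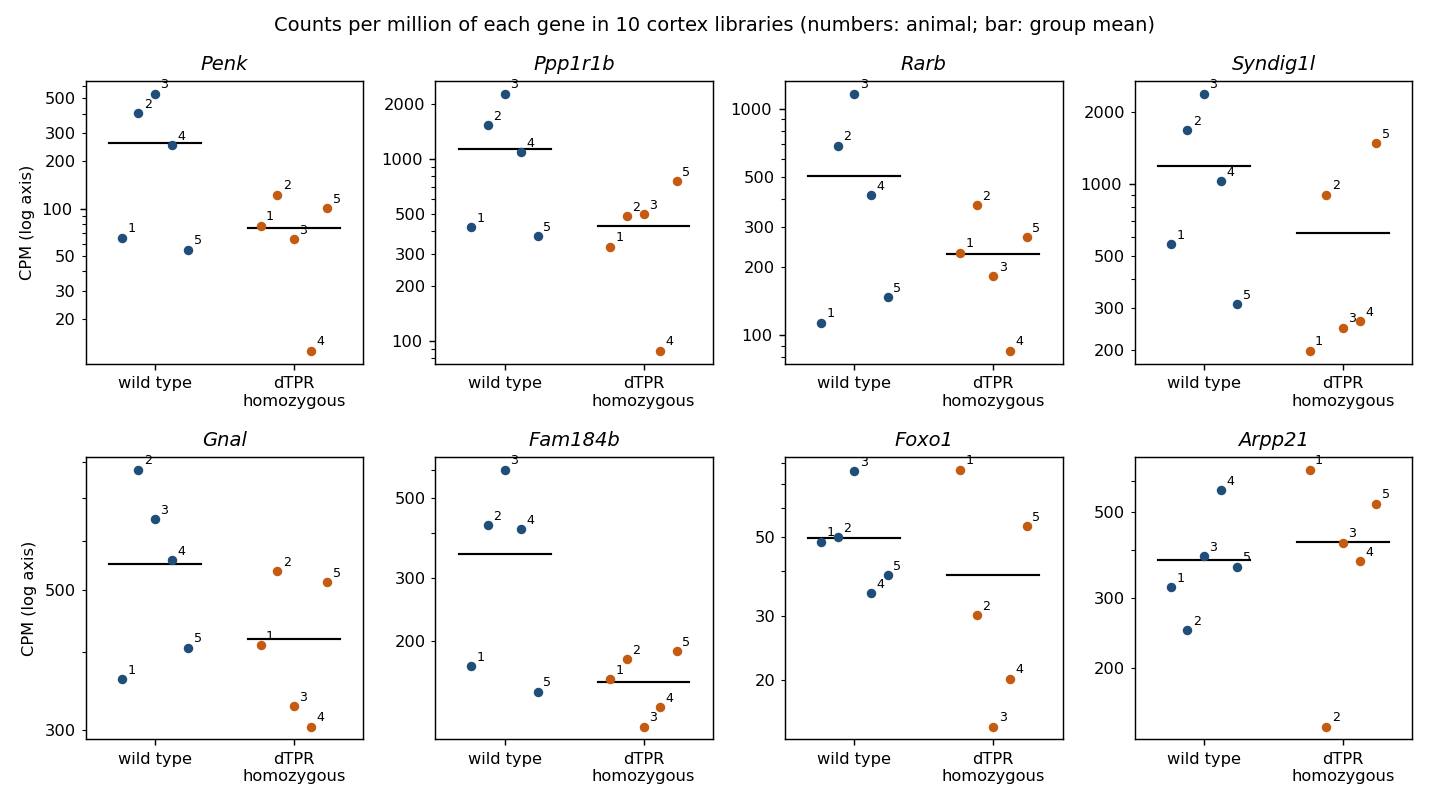
Level of each of the 8 genes in CPM on a log axis, 1 point for each library with its animal number, and a bar at each group mean. Wild-type animals 2, 3 and 4 are the 3 highest libraries for Penk, Ppp1r1b, Rarb, Gnal and Fam184b, while Arpp21 and Foxo1 are highest in dTPR homozygous animal 1.

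Transcriptional regulators split. Counts of Rarb were 73, 511, 858, 251 and 121 from wild-type animal 1 to 5, against 163, 236, 111, 68 and 173 from dTPR homozygous animal 1 to 5. Its order was that of Penk at the top and bottom, with wild-type animals 1 and 5 below 4 of the dTPR homozygous libraries. The means were 506.2 ± 435.5 and 229.3 ± 107.1 CPM (log2 fold change -1.15 ± 0.65), and without wild-type animal 3 the log2 fold change was -0.58.

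Foxo1 was the scarcest member, with 31, 37, 56, 21 and 32 counts in wild-type animals 1 to 5 and 54, 19, 9, 16 and 34 in dTPR homozygous animals 1 to 5. Its highest library was dTPR homozygous animal 1, closely followed by wild-type animal 3, and wild-type animal 4 was at place 7 of 10. At 49.6 ± 16.1 and 39.1 ± 25.8 CPM the log2 fold change of -0.34 ± 0.48 was smaller than its SE. It moved to -0.74 without dTPR homozygous animal 1, to -0.14 without wild-type animal 3, to -0.13 without dTPR homozygous animal 3 and to -0.17 without dTPR homozygous animal 4.

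Syndig1l and Arpp21 departed from the common order in different ways. Counts of Syndig1l were 358, 1249, 1757, 619 and 256 from wild-type animal 1 to 5, against 140, 568, 151, 211 and 942 from dTPR homozygous animal 1 to 5. Wild-type animals 3 and 2 were highest, but dTPR homozygous animal 5, at 1481 CPM, stood above wild-type animal 4, and the lowest library was dTPR homozygous animal 1. The means were 1193 ± 847 and 619.1 ± 561.6 CPM (log2 fold change -0.95 ± 0.74), with -0.53 without wild-type animal 3 and -1.56 without dTPR homozygous animal 5.

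Counts of Arpp21 were 206, 185, 283, 342 and 296 from wild-type animal 1 to 5, against 450, 89, 253, 297 and 333 from dTPR homozygous animal 1 to 5. Wild-type animals 2 and 3, the 2 highest for each member but Foxo1 and Arpp21, were here at places 9 and 5 of 10. It was the 1 member with a higher mean in dTPR homozygous cortex, 418.8 ± 186.3 against 376.5 ± 117.8 CPM, and its log2 fold change of 0.16 ± 0.32 turned to -0.04 without dTPR homozygous animal 1. It was 0.38 without dTPR homozygous animal 2, 0.36 without wild-type animal 4, 0.07 without dTPR homozygous animal 5 and 0.04 without wild-type animal 2. Arpp21 as counted here therefore did not follow the order that most other members shared, and the same holds in part for Foxo1. Arpp21 is known from cortical as well as striatal neurons.

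Fam184b, whose role in neurons is not established, had 109, 312, 443, 248 and 118 counts from wild-type animal 1 to 5, against 110, 112, 70, 104 and 119 from dTPR homozygous animal 1 to 5. Its 3 highest libraries were wild-type animals 3, 2 and 4, while wild-type animals 1 and 5, at 169.9 and 144.0 CPM, lay within the dTPR homozygous range of 115.2 to 187.0 CPM. The means were 349.3 ± 191.6 and 153.4 ± 30.5 CPM, a log2 fold change of -1.19 ± 0.34. The highest dTPR homozygous library had 1.62 times the lowest, far less than the 9.73 times of Penk in the same animals. The pattern was read at the 3′ ID: Gm42521 had 109, 308, 443, 243 and 105 counts in wild type and 92, 112, 68, 104 and 114 in dTPR homozygous cortex. At exon 1, 9630001P10Rik had 0, 4, 0, 5 and 13 and then 18, 0, 2, 0 and 5. These are too few to show whether the pattern holds at exon 1.

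Across the whole table edgeR's quasi-likelihood test called 0 of the 8 members and 0% of the 2019 genes tested at a Benjamini-Hochberg adjusted p of 0.05; each member had an adjusted p of 0.999. At an unadjusted p under 0.05 there were 57 genes in edgeR, and DESeq2, run without that filter on 5176 genes, also called 0, with 138. Of the 8 members, 7 had a negative log2 fold change, as did 49.8% of all genes tested, with a median of -1.05 against 0.0017 over all genes. In 5 members (Penk, Ppp1r1b, Rarb, Gnal and Fam184b) all 5 dTPR homozygous libraries lay below the wild-type mean, which was so for 9.41% of the genes tested. Groups without overlap, every dTPR homozygous library below every wild-type one, were found in 0 members and in 0.149% of genes. With the filter on low counts removed, edgeR called 2 of 5176 genes, Fam184b among them (adjusted p = 0.015, log2 fold change -1.15). In that setting 542 genes had an unadjusted p under 0.05. The adjusted p of Fam184b ran from 0.015 to 0.9999 over all settings. These tests share the libraries that led to the choice of the members. Nor can fewer striatal cells in a piece of tissue and less RNA per cell be told apart in such bulk samples.

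Leaving out wild-type animals 2 and 3 shows how much these 2 libraries add to the differences. They were chosen after seeing the data, for their high levels, so that values nearer 0 follow from the choice for the genes they lead. Without both, the log2 fold change was -0.71 for Penk, -0.54 for Ppp1r1b, -0.65 for Fam184b, -0.07 for Gnal, -0.02 for Syndig1l and 0.03 for Rarb, and for Foxo1 and Arpp21 it was -0.06 and 0.01. Gnal was at -0.23 without wild-type animal 2 alone. With each single library left out, 7 of the 8 members kept a negative sign and Arpp21 did not keep its positive one. Penk then ran from -2.05 to -1.36, Ppp1r1b from -1.70 to -0.995 and Fam184b from -1.38 to -0.90.

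**Figure D2:**
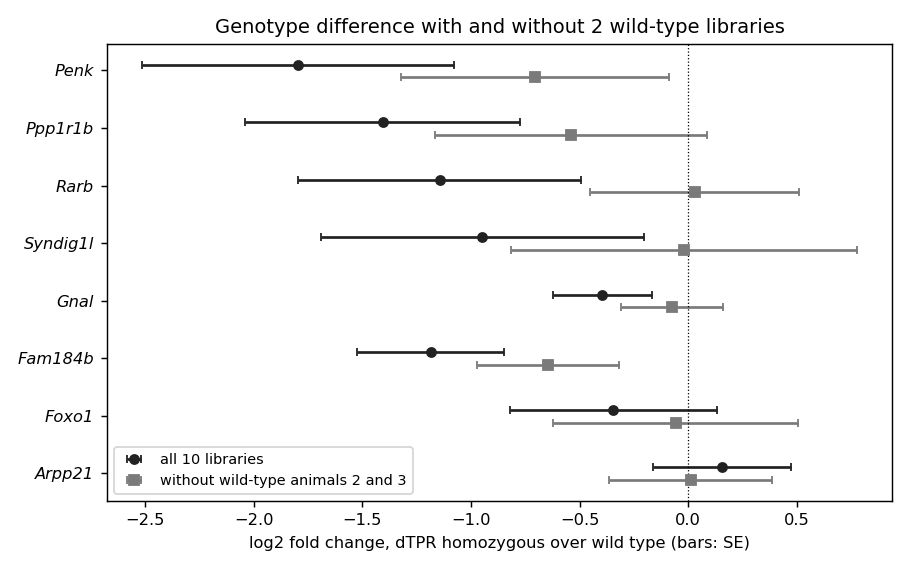
Log2 fold change of each gene, dTPR homozygous over wild type, with its SE as bars, for all 10 libraries (circles) and without wild-type animals 2 and 3 (squares). Penk moves from -1.80 to -0.71 and Rarb from -1.15 to 0.03.

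Shared variation is given as a description, since it entered the choice of the members and all points share the same 10 libraries and their depth. Over the 15 pairs among Penk, Ppp1r1b, Rarb, Syndig1l, Gnal and Fam184b, Pearson's r of log2 CPM ran from 0.80 to 0.97. After each genotype's mean was subtracted it ran from 0.76 to 0.97. These values pool the 10 libraries, and r was not computed in each genotype alone. The group with the wider spread weighs more in them, as for Fam184b, with an SD of log2 CPM of 0.89 in wild type and 0.29 in dTPR homozygous cortex. Penk and Ppp1r1b were the closest pair at 0.97 and Rarb and Syndig1l the least close at 0.80. Foxo1 had r from 0.44 to 0.54 with these 6 genes, and Arpp21 had r from -0.25 to 0.23 with the other members. Over the 10 libraries wild-type animal 3 was highest for 5 of the 8 members and dTPR homozygous animal 4 lowest for 4.

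**Figure D3:**
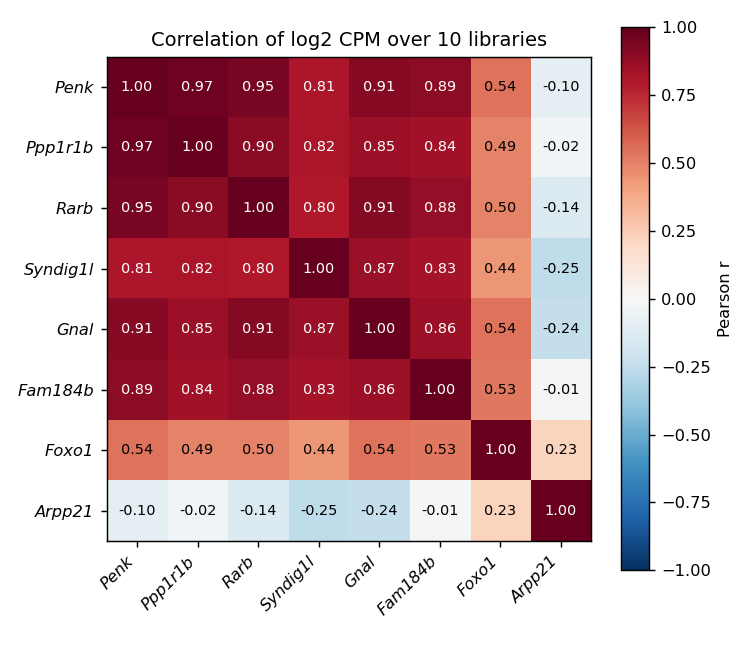
Pearson's r between the log2 CPM of each pair of genes over 10 libraries, from -1 in blue to 1 in red. Penk, Ppp1r1b, Rarb, Syndig1l, Gnal and Fam184b form a block at 0.80 or more, Foxo1 sits between 0.44 and 0.54 with them, and Arpp21 is at or below 0.23 with every gene.

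Spread within genotypes differed among the members. The within-genotype SD of log2 CPM was 1.34 for Penk, 1.23 for Syndig1l, 1.16 for Ppp1r1b and 1.15 for Rarb, against a median of 0.60 over all genes tested. Among genes within 2-fold of their level, 98.9%, 99.0%, 98.7% and 98.9% had a lower SD than Penk, Syndig1l, Ppp1r1b and Rarb. For Arpp21 and Fam184b, with an SD of 0.66 each, it was 94.1% and 91.1%, and for Gnal (0.42) and Foxo1 (0.70) it was 75.7% and 41.7%. These shares describe the 10 libraries, from which the members were picked.

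Ratios between members within a library do not depend on the library's total. Penk made up 13.5%, 20.8%, 19.0%, 18.8% and 12.8% of the summed counts of Penk and Ppp1r1b in wild-type animals 1 to 5, and 19.2%, 20.2%, 11.4%, 12.5% and 11.8% in dTPR homozygous animals 1 to 5. The share varied between 11.4 and 20.8%, while the CPM of Penk varied 9.72-fold and 9.73-fold within the genotypes. Exact 95% binomial intervals, which cover counting error only, ran from 18.7 to 22.98% in wild-type animal 2 and from 9.21 to 14.8% in dTPR homozygous animal 5. Both genotypes held libraries at the lower and at the upper end.

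Rarb took 21.3 to 33.9% of its sum with Ppp1r1b in wild type and 26.6 to 49.3% in dTPR homozygous cortex, highest in dTPR homozygous animal 4. Fam184b took 20.9 to 28.8% in wild type and 18.8 to 32.3% in 4 of the dTPR homozygous libraries. In dTPR homozygous animal 4, where Ppp1r1b had 70 counts, Fam184b took 59.8% (95% interval 52.1 to 67.1%), with 104 counts of its own. Gnal was likewise at 77.6% in that library and at 22.2% in wild-type animal 3. Syndig1l took 45.5 to 57.1% in wild type and ranged more widely in dTPR homozygous cortex, from 33.3% in animal 3 to 75.1% in animal 4.

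**Figure D4:**
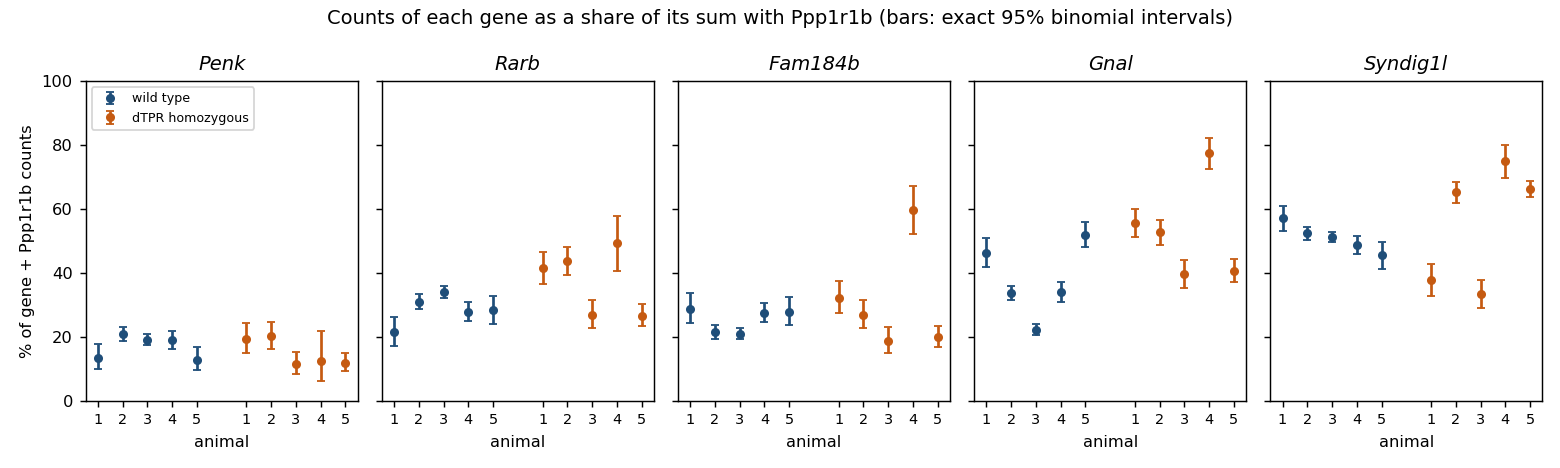
Counts of Penk, Rarb, Fam184b, Gnal and Syndig1l as a percent of their sum with Ppp1r1b in each library, with exact 95% binomial intervals that cover counting error only. Penk stays between 11.4 and 20.8%, while Fam184b and Gnal rise to 59.8% and 77.6% in dTPR homozygous animal 4, whose Ppp1r1b count was 70.

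The members' own IDs, on the strand of the genes, held few counts for most. Penk, Ppp1r1b, Rarb, Syndig1l and Foxo1 had at most 14 counts there in any library and Fam184b at most 19, too few to compare libraries. Gnal had 28, 40, 26, 17 and 44 in wild type and 26, 31, 37, 26 and 13 in dTPR homozygous cortex. Arpp21 held counts of similar size at its own ID and at the facing one, with 269, 318, 256, 276 and 242 in wild type and 313, 122, 260, 274 and 206 in dTPR homozygous cortex, and dTPR homozygous animal 2 was lowest at both.

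Age was not used in choosing the members. In an edgeR fit with genotype and age across all 2019 genes, 0 members and 0% of genes were called for age (adjusted p from 0.975 to 0.989 for the members). The log2 change for each 100 days ran from -0.28 ± 0.24 for Arpp21 to 0.37 ± 0.38 (SE) for Foxo1, with 0.17 ± 0.58 for Penk and 0.05 ± 0.53 for Ppp1r1b. The ages, mostly close together, leave wide errors.

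The other genes of the members' pathways, from lists and without the members, gave 0 calls in edgeR over all genes tested. Of the 8 tested of 47 genes of dopamine and cAMP signalling, 4 had positive and 4 negative log2 fold changes with a median of -0.03; Gnas, the G protein alpha subunit related to Gnal, was at 57125 ± 3234 and 60835 ± 11347 CPM, and Ppp1ca, the phosphatase that phosphorylated DARPP-32 inhibits, at 812.4 ± 60.2 and 712.6 ± 128.0 CPM. The 2 tested of 16 opioid genes were Pcsk2, a protease that cuts peptide precursors (0.10 ± 0.20), and Npepps (0.19 ± 0.73). Among 3 of 22 retinoid genes, the receptor cofactors Ncoa1 and Ncor1 were at -0.19 ± 0.16 and -0.03 ± 0.17. All 3 tested of 27 FoxO and insulin signalling genes had positive values, Txnip with 0.12 ± 0.39, as had both tested genes of AMPA receptors and the SynDIG family, Cpt1c (0.21 ± 0.23) and Cnih2 (0.52 ± 0.33). R3hdm4, the 1 tested relative of Arpp21, was at -0.01 ± 0.29.

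The 6 tested genes among the other medium spiny neuron genes were few and mostly scarce. Dlx6, a homeobox factor of forebrain GABA neurons, had means of 57.7 ± 34.8 CPM (wild type) and 38.4 ± 26.8 CPM (dTPR homozygous; log2 fold change -0.59 ± 0.53) and highest in wild-type animal 3. Hpca, which encodes the calcium sensor hippocalcin, was at 302.5 ± 116.2 and 310.2 ± 220.5 CPM, and Rgs8, Itpr1, Id4 and Myh7 were at 0.19 ± 1.01, 0.25 ± 0.70, 0.57 ± 0.42 and 0.82 ± 1.03 on the log2 scale. On that scale Hpca was at 0.04 ± 0.47, and each value for Hpca, Rgs8, Itpr1 and Myh7 was smaller than its SE. So 5 of these 6 had positive fold changes, where 7 of the 8 members and 49.8% of all genes tested had negative ones. Of the 6, 0 passed. Nor did most of them vary with the members: Pearson's r with the mean log2 CPM of the 7 known striatal members over the 10 libraries was 0.68 for Dlx6, 0.25 for Rgs8, 0.10 for Itpr1, -0.08 for Id4, -0.34 for Hpca and -0.47 for Myh7, and -0.34 for their summed level.

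Markers of other cells that the dissected piece could hold were read beside the members. The GABA neuron list had 3 tested genes of 19, with a summed level of 628.7 to 2261 CPM in wild type and 507.6 to 1726 CPM in dTPR homozygous cortex. Slc32a1, the vesicular GABA transporter that medium spiny neurons share with interneurons, was highest in wild-type animal 3 and had r = 0.85 with the mean log2 CPM of the 7 known striatal members over the 10 libraries, Dlx6 had r = 0.68 and Dlx1 had r = 0.36, all as descriptions. With each genotype's mean subtracted these were 0.83, 0.62 and 0.68. Of 38 cortical excitatory neuron genes 4 were tested, at 2617 to 9440 and 2840 to 6060 CPM in sum. The most abundant were Tshz2 (3676 ± 2863 and 3413 ± 1197 CPM) and Ccn2 (498.5 ± 308.2 and 489.3 ± 296.1 CPM). Choroid plexus and ependyma genes (2 of 12 tested) summed to 27.2 to 277.1 and 1.42 to 290.7 CPM, cholinergic neuron genes (2 of 9) to 97.7 to 444.1 and 161.3 to 602.0 CPM, and thalamus and hypothalamus genes (2 of 14) to 112.3 to 247.8 and 64.2 to 359.0 CPM. On a log2 scale the summed level of the GABA neuron list had r = 0.83 with the mean of the 7 known striatal members. It was 0.37 for cholinergic neurons, 0.26 for thalamus and hypothalamus, -0.21 for choroid plexus and ependyma and -0.44 for cortical excitatory neurons. Among the other cell lists it was 0.14 for endothelium and mural cells, -0.07 for astrocytes and -0.48 for oligodendrocytes. For microglia and hippocampus, with 1 tested gene each, it was -0.66 and -0.76. The part of these cells in the members' levels was not tested.

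Outside the members, the 5 genes whose log2 CPM was most like the mean of the 7 known striatal members over the 10 libraries, after each genotype's mean was subtracted, were Ovca2 (r = 0.88), 4933407L21Rik (0.88), Smarcd3 (0.86), Garem2 (0.85) and Dll1 (0.84). Among all 2019 genes Penk, Ppp1r1b, Rarb, Gnal and Fam184b held places 1 to 5 by this measure, Syndig1l at place 14, Foxo1 at 155 and Arpp21 at 948, but all members except Fam184b are part of the mean. The group means of Smarcd3 were 4897 and 3964 CPM, and those of Dll1 53.2 and 26.3 CPM, wild type first.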

How the data were processed

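Per the labels' protocols, TRIzol was used for total RNA and the SENSE Total RNA-Seq kit for libraries, read from 1 end. TopHat, HTSeq and DESeq2 and build GRCm38.p5 are named, per the submitters' processing notes; versions and strand settings are not given in the sources used here. Each deposited table lists whole-number counts that the authors made for 53090 gene IDs, and 0 rows name no gene.

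Of these, 52403 were found in GENCODE M21. Counts of 8188 IDs were summed per gene that held at least 90% of the exon bases on the other strand (88.0% of counts). This step was inferred from gene positions. The labels mention no molecular identifiers, so reads may not be independent molecules and intervals cover counting error only.

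edgeR 4.0.16 in R 4.3.3 was run on all 10 libraries: TMM factors, filterByExpr, quasi-likelihood fits (robust) on genotype alone, and p-values adjusted by Benjamini-Hochberg. CPM are mean ± SD, and log2 CPM used a prior count of 2. All 8 members passed the filter.

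The members and lists were chosen with earlier results of these data known. Genes named are the members, all tested genes of the other medium spiny neuron list, the 2 most abundant tested genes of other lists where a result turns on them (some genes of the lists are not reported here), and the 5 genes most like the members. The 18 lists, those not described in detail included, gave 0 calls each, the blood list with 0 genes tested. Alternatives were other scalings, filters, DESeq2 1.42.0, age, animal number, assignment shares of 50% and 100%, gene IDs as deposited and each library left out.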

Additional observations from a re-analysis of the deposited data

Results flagged for a closer look

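Counts at the members' own IDs, on the strand of the genes, were not used for the members' levels. In every library they exceeded the 3 counts that a count of 0 allows for Gnal, at least 13, and for Arpp21, at least 122. By the strand reading used here they belong to the genes on the other strand, Mppe1 for Gnal and 2900079G21Rik for Arpp21. Mppe1 and 2900079G21Rik were among the 2019 genes tested and were not called. Each had a negative log2 fold change smaller than its SE. Groups of 5 libraries were examined for 1 library far from the other 4, for the 8 members, for the mean log2 CPM of the 7 known striatal members and for library totals. Of 20 such groups 0 had one, where about 1 in 20 is expected by chance.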

How the results depend on the processing

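Over 21 settings the number of genes called by genotype was 0 in 20, from 0 to 0 with 1 library left out, and 2 without a filter on low counts in edgeR (Fam184b lower and Prox1os higher, the latter named after its value was seen); the cause was not tested. At an unadjusted p under 0.05 there were 45 to 138 genes in the 20, and 542 without a filter. Of 160 member fold changes under these settings, 2 reversed: Rarb at 0.0297 without wild-type animals 2 and 3, a setting chosen after seeing the data, and Arpp21 at -0.0431 without dTPR homozygous animal 1, with a range of -0.0431 to 0.382 over single libraries left out. Animal numbers are shared by the genotypes, but same-numbered animals did not deviate together (correlations from -0.11 to 0.10; 2 of 5 wild-type animals were closest to their own number), and with animal number as a replicate block edgeR called 0 genes. Pearson's r of the mean log2 CPM of the 7 known striatal members with age was -0.04 (Spearman's rho 0.10), given without a test, since the members were chosen on these data. It was 0.52 without the 2 libraries farthest from the median age and from -0.37 to 0.28 with 1 library left out. Depth limits Foxo1 most, with 9 to 56 counts a library, although the SE of its fold change (0.48) is below those of Penk, Ppp1r1b, Rarb and Syndig1l.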
